A study of Mus musculus with 3 samples.

Results

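The p53 pathway was followed through 9 genes, 8 that are linked to p53 as its targets or feedback partners and Trp53, which encodes p53 itself. They are Trp53, Trp53inp1, Mdm2, Ccng1, Phlda3, Zmat3, Btg2, Gadd45a and Gadd45b, taken by name from a list of 27998 genes counted in each of 3 single-cell libraries. All 9 were found by symbol. The mCherry library and the non_mCherry library were sort fractions of a single C57BL/6 mouse, termed AML1/ETO, that carried Mx1-Cre and a heterozygous conditional Runx1-Runx1t1 knock-in with an mCherry sequence behind it, induced with poly(I:C). The mCherry cells were sorted as positive for the reporter and the non_mCherry cells as negative for it. Control cells were taken from a C57BL/6 mouse of wild-type genotype, and the labels do not state whether it was given poly(I:C). All 3 libraries held live (DAPI-) bone marrow cells negative for lineage markers and positive for c-kit, the receptor of stem and progenitor cells, and ages were not given in the sources used here. Mx1-Cre is driven by interferon, which poly(I:C) induces, so it marks the cells that answered that signal and not a single lineage.

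p53 is a transcription factor that is stabilised by DNA damage and other stress and switches on genes for cell cycle arrest, DNA repair and cell death. Mdm2, itself a target, encodes the ubiquitin ligase that marks p53 for degradation and so closes a feedback loop. In blood-forming cells p53 is known for restraining stem cell proliferation and for setting their sensitivity to irradiation. Several genes of the set also answer to other signals: Btg2 is induced by growth factors with the immediate early genes, and Gadd45b by NF-kB and by stress kinases.

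The kept cells numbered 10150 in mCherry, 7850 in non_mCherry and 8857 in control, with 92048702, 86852479 and 143339512 UMIs (unique molecular identifiers, each 1 counted molecule). With 1 library a group there is no replicate error, no p-value was computed, and all intervals are exact 95% intervals that cover counting error only. As a check of the labels, Runx1t1, the fusion partner, had 8.47 CPM (UMI counts scaled to a common library total) in mCherry, 0.311 CPM in non_mCherry and 0.216 CPM in control, and Kit had 269, 56.6 and 66.8 CPM in the same order. The libraries also differed in other ways that touch the results below. A typical mCherry cell had 8174 UMIs, a non_mCherry cell 9242 and a control cell 15416 (medians). Malat1, a nuclear RNA, had 19778, 5316 and 4829.7 CPM in that order. The summed level of 16 immediate early genes was 20218 CPM in mCherry, 3301 CPM in non_mCherry and 3004.9 CPM in control, that of 20 cycling genes 1071, 2795 and 2730.3 CPM, and the median mitochondrial share 2.50%, 1.87% and 1.87%. Their part in the differences between libraries was not tested except where matched values are given.

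Promoters are shown for 4 genes whose windows held different motif matches or none, and any link of these matches to the levels below was not tested. Each line gives the 250 bases before the RefSeq start in GRCm38.p6, read 5′ to 3′ on the strand of the gene. Capitals mark a match to a motif in a search of both strands. Ccng1 lies at chr11:40755287-40755536 on the minus strand, and its capitals mark a 20-base p53 site, 195 to 176 bases before the start, with at most 2 letters off the consensus. Mdm2 lies at chr10:117710759-117711008 on the minus strand, with a 10-base p53 decamer, which is 1 arm of the full site, 186 to 177 bases before the start. Btg2 lies at chr1:134079156-134079405 on the minus strand, with the cAMP response element TGACGTCA 166 to 159 bases before the start. Gadd45b lies at chr10:80929841-80930090 on the plus strand and had no match.
Ccng1: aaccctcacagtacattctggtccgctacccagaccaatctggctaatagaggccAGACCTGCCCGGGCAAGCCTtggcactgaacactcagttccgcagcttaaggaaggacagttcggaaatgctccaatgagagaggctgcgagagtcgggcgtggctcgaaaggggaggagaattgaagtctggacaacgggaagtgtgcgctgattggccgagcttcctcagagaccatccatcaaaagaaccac
Mdm2: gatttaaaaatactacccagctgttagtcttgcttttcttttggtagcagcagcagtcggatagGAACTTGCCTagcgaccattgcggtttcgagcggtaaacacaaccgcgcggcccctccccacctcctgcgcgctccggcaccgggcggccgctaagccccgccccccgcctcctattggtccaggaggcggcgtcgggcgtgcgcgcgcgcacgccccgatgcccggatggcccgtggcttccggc
Btg2: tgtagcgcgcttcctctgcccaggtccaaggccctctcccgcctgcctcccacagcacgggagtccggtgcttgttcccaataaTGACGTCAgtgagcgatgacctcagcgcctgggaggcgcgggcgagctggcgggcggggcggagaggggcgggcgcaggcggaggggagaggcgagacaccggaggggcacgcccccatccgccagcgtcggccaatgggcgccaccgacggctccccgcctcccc
Gadd45b: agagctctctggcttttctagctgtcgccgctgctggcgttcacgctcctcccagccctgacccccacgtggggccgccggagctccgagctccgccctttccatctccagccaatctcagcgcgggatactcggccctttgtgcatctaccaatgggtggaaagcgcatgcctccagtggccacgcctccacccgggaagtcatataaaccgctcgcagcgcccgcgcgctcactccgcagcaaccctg
A p53 decamer was also found in the windows of Trp53 and Gadd45a, and the decamer of Ccng1 overlaps its 20-base site. Among 32851 mouse promoter windows of the same length, 7.13% held a decamer, 0.661% the 20-base site and 1.55% the cAMP response element. No window among the 7 members in the table held the AP-1 motif TGANTCA (6.75% of all windows), a CArG box (1.47%) or an NF-kB site (3.90%). A match describes letters in this window and shows no binding.

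Trp53 (chr11:69580359-69591873, plus strand, mm10, as all gene positions here) had nearly the same level in each library. It had 191.8 CPM in mCherry, 198.5 CPM in non_mCherry and 202.5 CPM in control, which is a ratio of mCherry to control of 0.948 (95% interval 0.930 to 0.965). That difference is beyond counting error and small beside the scaling of the libraries: median-of-ratios scaling shifted mCherry over control by -0.20 on the log2 scale for all genes alike. After every cell was thinned to 5000 UMIs, Trp53 had a UMI in 59.4% of mCherry, 62.0% of non_mCherry and 62.2% of control cells.

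Of the 9 genes, 7 reached 20 CPM in mCherry or control and could be called by the 2-fold rule. Trp53inp1, Btg2 and Gadd45b were at least 2-fold higher in mCherry, and Gadd45a was at least 2-fold lower. Among all 6580 genes at that level, 18.5% were at least 2-fold higher and 12.3% at least 2-fold lower. Against non_mCherry the same 3 genes were higher and the same gene lower, beside 17.6% and 11.1% of 6570 genes. Both comparisons share the mCherry cells. Of the 3 others at that level, Mdm2, Ccng1 and Trp53 stayed under 2-fold in both. Phlda3 and Zmat3 stayed under 20 CPM in all 3 libraries.

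**Figure D1:**
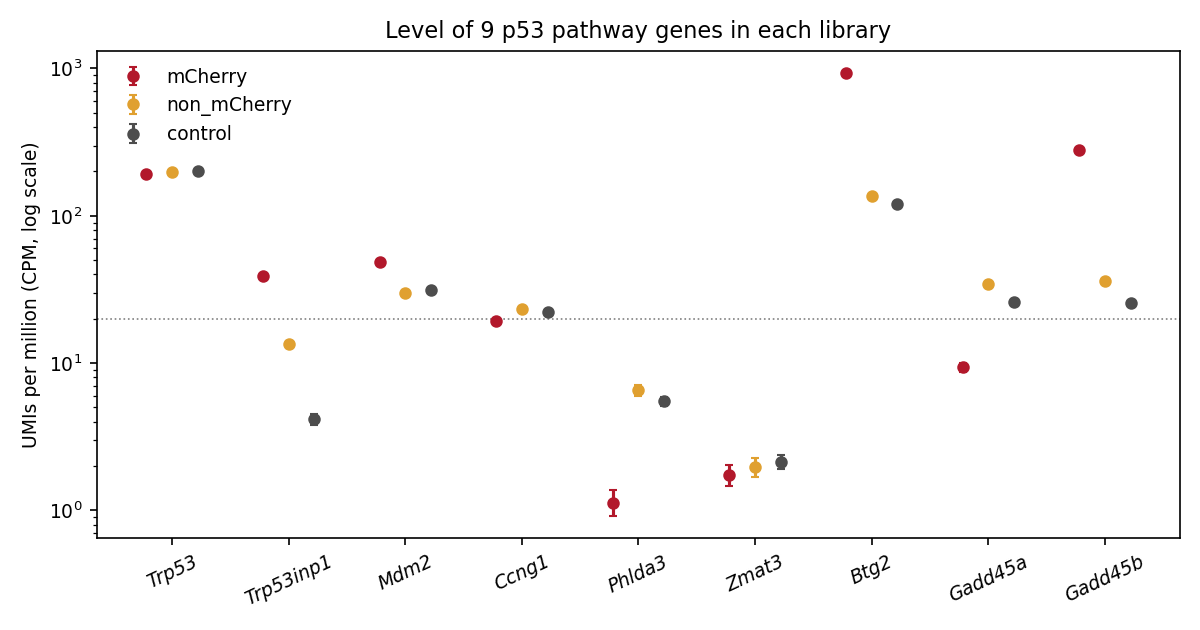
Level of each of the 9 genes in CPM, on a log axis, in the mCherry, non_mCherry and control libraries, with exact Poisson intervals of the UMI counts; the dotted line is the 20 CPM filter. Trp53, Ccng1 and Zmat3 lie close together in the 3 libraries, Trp53inp1, Btg2 and Gadd45b are highest in mCherry, and Phlda3 and Gadd45a are lowest there.

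Btg2 (chr1:134075170-134079120, minus strand), an antiproliferative factor that recruits deadenylases to messenger RNA, showed the change with the most molecules behind it. It had 927 CPM in mCherry (85358 UMIs), 136.0 CPM in non_mCherry and 119.5 CPM in control. The level in mCherry was 6.82-fold that in non_mCherry (6.69 to 6.95) and 7.76-fold that in control (7.63 to 7.89). At 5000 UMIs a cell, 80.1% of mCherry, 39.6% of non_mCherry and 39.9% of control cells had a UMI. The difference lay in the amount as well as in the share. At least 3 UMIs were seen in 57.3% of mCherry, 9.70% of non_mCherry and 8.62% of control cells.

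Gadd45b (chr10:80930073-80932204, plus strand), a stress sensor that binds MAP kinase kinases, had 278 CPM in mCherry, 36.2 CPM in non_mCherry and 25.7 CPM in control. The level in mCherry was 7.69-fold that in non_mCherry (7.41 to 7.98) and 10.8-fold that in control (10.5 to 11.2). A UMI was seen in 49.3% of mCherry, 15.4% of non_mCherry and 11.4% of control cells at matched depth. Its relative Gadd45a (chr6:67035096-67037457, minus strand), a sensor of DNA damage and growth arrest, went the other way. Gadd45a had 9.35 CPM in mCherry, 34.5 CPM in non_mCherry and 26.1 CPM in control, so mCherry was 3.69-fold lower than non_mCherry (3.42 to 3.98) and 2.79-fold lower than control (2.59 to 3.01). At matched depth 4.47% of mCherry, 14.3% of non_mCherry and 11.2% of control cells had a UMI. The antisense gene E230016M11Rik overlaps Gadd45a in the annotation and has no row of its own in the gene list. Gadd45g, the remaining paralog, had 65.8 CPM in mCherry, 16.6 CPM in non_mCherry and 10.4 CPM in control, so Gadd45a alone among the 3 paralogs was lower in mCherry; the directions of Gadd45a and Gadd45b held under every alternative scaling run, and Gadd45g was not run under them.

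Trp53inp1 (chr4:11156431-11174379, plus strand), a nuclear protein that promotes p53 activity and autophagy, differed between all 3 libraries. It had 38.8 CPM in mCherry, 13.4 CPM in non_mCherry and 4.15 CPM in control. The level in mCherry was 2.90-fold that in non_mCherry (2.71 to 3.099) and 9.36-fold that in control (8.58 to 10.2). It reached 20 CPM only in mCherry, so in these comparisons it could be called in that direction alone. At matched depth 17.3% of mCherry, 5.55% of non_mCherry and 2.71% of control cells had a UMI. That depth of 5000 UMIs kept 1021 of the 2025 B cell progenitor-like cells of non_mCherry, where Trp53inp1 was high. At 3000 UMIs the shares were 11.5%, 5.39% and 1.86% in the same order. The non_mCherry cells kept at 3000 UMIs had 21.1 CPM of Trp53inp1, and those kept at 5000 had 13.4 CPM. The step between non_mCherry and control, 3.23-fold (2.92 to 3.57), went with the make-up of the libraries. B cell progenitor-like cells were 25.8% of non_mCherry and 0.497% of control cells and held 52.9% and 3.03% of the Trp53inp1 UMIs. Without them Trp53inp1 had 7.33 CPM in non_mCherry and 4.03 CPM in control. These cells hold few UMIs each, and with every cell weighted alike mCherry averaged 42.2 CPM a cell, non_mCherry 27.9 and control 7.06, which brings mCherry over non_mCherry under 2-fold.

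Mdm2 (chr10:117688875-117710758, minus strand) was moderately higher in mCherry. It had 48.8 CPM in mCherry, 30.1 CPM in non_mCherry and 31.4 CPM in control, a ratio to control of 1.55 (1.49 to 1.62) that stays under 2-fold. A UMI was seen in 21.7% of mCherry, 15.4% of non_mCherry and 15.03% of control cells. Ccng1 (chr11:40748552-40755311, minus strand), an atypical cyclin that binds protein phosphatase 2A and the gene whose window holds the 20-base p53 site, had 19.4, 23.3 and 22.3 CPM in mCherry, non_mCherry and control. Its ratio of mCherry to control was 0.871 (0.821 to 0.923), and its share of cells with a UMI 9.23%, 10.6% and 10.5% in that order. Its direction depends on the cells taken. In cells with fewer than 25 immediate early UMIs the log2 ratio was 0.12.

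Phlda3 (chr1:135766119-135769136, plus strand) encodes a pleckstrin homology protein that holds back the kinase Akt. It had 1.13 CPM in mCherry (104 UMIs), 6.52 CPM in non_mCherry and 5.49 CPM in control, which is 5.77-fold lower than non_mCherry (4.67 to 7.18) and 4.86-fold lower than control (3.96 to 6.02), at a level under the 20 CPM filter. A UMI was seen in 0.351% of mCherry, 2.93% of non_mCherry and 2.73% of control cells at 5000 UMIs each. Granulocyte-monocyte progenitor-like cells were the named class with the lowest share. Phlda3 was seen there in 0 of 178 cells of non_mCherry and in 0.200% of those of control. The count of 0 allows up to 2.05% by the exact interval and 1.69% by a floor of 3 counts. Zmat3 (chr3:32334792-32366014, minus strand), an RNA-binding zinc finger protein, had 1.73 CPM in mCherry, 1.96 CPM in non_mCherry and 2.13 CPM in control, and its ratio of mCherry to non_mCherry was 0.882 (0.706 to 1.10), within counting error.

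**Figure D2:**
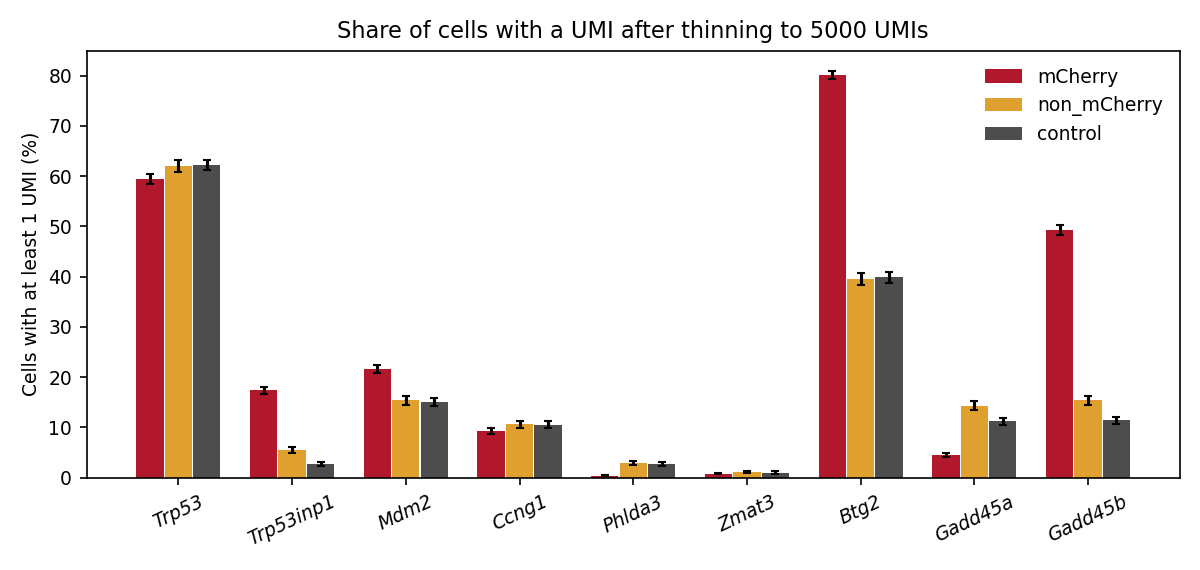
Share of cells with at least 1 UMI of each gene, in percent, after every cell was thinned to 5000 UMIs (9403 mCherry, 6247 non_mCherry and 8391 control cells), with exact Clopper-Pearson intervals. Btg2 was seen in 80.1% of mCherry cells against 39.9% of control cells, and Gadd45a in 4.47% against 11.2%.

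No class was taken in advance as one that lacks these genes, so the lowest named class of non_mCherry and control is given as the nearest measure of free RNA at the same depth; no such class was measured in mCherry, whose own free RNA is unknown. For Trp53inp1 that was the dendritic cell-like class with 0.283% in non_mCherry and 0.462% in control, for Gadd45b the erythroid progenitor-like class with 5.44% and 3.26%, and for Btg2 the granulocyte-monocyte progenitor-like class with 14.6% and 14.4%. For Gadd45a the lowest classes had 5.56% in non_mCherry and 4.98% in control. Thinning left out 747 mCherry, 1603 non_mCherry and 466 control cells. In non_mCherry it kept 1021 of 2025 B cell progenitor-like cells, which bears on Trp53inp1. Without thinning Btg2 had a UMI in 85.3%, 58.2% and 67.0% of cells in mCherry, non_mCherry and control. A mCherry cell had a UMI of 2.43 of the 9 genes on average at 5000 UMIs, a non_mCherry cell of 1.67 and a control cell of 1.57.

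Of 36 other p53 targets, 19 reached 20 CPM in mCherry or control, and 7 were at least 2-fold higher in mCherry, 3 lower and 9 under 2-fold, beside 18.5% higher and 12.3% lower among all genes at that level. Gdf15, a stress cytokine, had 22.6 CPM in mCherry, 2.77 CPM in non_mCherry and 2.28 CPM in control, Sesn1, an inhibitor of mTORC1, 66.6, 17.3 and 16.4 CPM, and Ier5 181, 65.5 and 50.9 CPM. Furthest down were Rps27l, a ribosomal protein paralog, with 259.8 CPM in mCherry, 549 CPM in non_mCherry and 603 CPM in control, Aen, an exonuclease of cell death, with 23.3, 47.3 and 53.1 CPM, and Bax with 79.5, 182 and 166 CPM. Bax, the pore-forming death effector, was 2.09-fold lower in mCherry than in control (2.04 to 2.15), while Bbc3, which encodes Puma, had 21.7 CPM in mCherry, 10.2 CPM in non_mCherry and 9.80 CPM in control. Pmaip1, which encodes Noxa, had 0.978, 12.2 and 11.4 CPM, under the filter. Cdkn1a, the p21 inhibitor of cyclin-dependent kinases and the best known target for arrest, had 113 CPM in mCherry, 71.5 CPM in non_mCherry and 78.0 CPM in control, a ratio to control of 1.45 that is under 2-fold.

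Of 21 measured regulators of p53, 19 reached 20 CPM in mCherry or control, 2 were at least 2-fold higher, 2 lower and 15 under 2-fold, shares no larger than the 18.5% and 12.3% of all genes. The acetyltransferase Crebbp had 132 CPM in mCherry, 58.2 CPM in non_mCherry and 55.5 CPM in control. The ubiquitin ligase Rchy1 had 81.6, 38.9 and 35.9 CPM, and Ep300, also an acetyltransferase, 82.4, 43.2 and 43.6 CPM, which is under 2-fold. Furthest down in mCherry was the checkpoint kinase Chek1, with 8.77 CPM in mCherry, 37.6 CPM in non_mCherry and 42.2 CPM in control. Rpl5, which binds Mdm2, had 2239, 3089.7 and 3244 CPM. Mdm4, the partner of Mdm2, had 73.7 CPM in mCherry, 49.0 CPM in non_mCherry and 48.1 CPM in control. Cdkn2a, whose Arf product inhibits Mdm2, had 2 UMIs in mCherry, 169 UMIs in non_mCherry and 3 UMIs in control. The p53 homologs Trp63 and Trp73 had 0 UMIs each in mCherry, 0 and 2 UMIs in non_mCherry and 0 each in control.

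Relatives of the 9 genes by sequence family were measured too. Of 16 relatives, 7 reached 20 CPM in mCherry or control, and 4 were at least 2-fold higher in mCherry and 0 lower, beside the same 18.5% and 12.3%. Phlda1 had 242 CPM in mCherry, 30.2 CPM in non_mCherry and 19.2 CPM in control, Btg1 635, 105.5 and 71.8 CPM, and Ccng2 51.8, 10.9 and 7.27 CPM. Gadd45g is the remaining one. Furthest down, all under 2-fold from control, were Zmat2 with 104, 123 and 122 CPM and Zmat5 with 45.9, 52.8 and 52.3 CPM. Tob2 is the third by rank, though higher in mCherry, with 61.9, 30.1 and 34.6 CPM. Within the Ccng and Phlda families the paralogs thus went apart: Ccng2 was 7.12-fold higher in mCherry than in control while Ccng1 had a ratio of 0.871, and Phlda1 was 12.6-fold higher while Phlda3 was lower.

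Levels of the 9 genes within the mCherry library differed by cluster. Clustering left out the 9 genes and the other p53 targets. The mCherry cells fell into 6 clusters, of which only 1 met the naming rule, as basophil and mast cell-like, and 17.0% of mCherry cells had a class name beside 80.2% of non_mCherry and 83.3% of control cells. Clusters 0, 1, 2, 4 and 5 scored highest on the stem and multipotent progenitor markers, at 0.60 in cluster 2 and at least 1 in the others. They had none of those markers among their leading genes, so they carry no class name. Each cluster is called here by 2 of its 10 leading genes among mCherry cells, in cluster order Plk2 and Slc16a11 (3254 cells), AY036118 and Gm42418 (1430 cells), Gadd45b and Tnf (2831 cells), Cma1 and Fcer1a (1682 cells, the basophil and mast cell-like cluster), the interferon genes Ifit1 and Iigp1 (156 cells) and the cycling genes Ube2c and Birc5 (748 cells). Globin genes led ahead of these in 2 of them, Hbb-bs, Hba-a1 and Hba-a2 in the Plk2 cluster and Hbb-bt in the Tnf cluster. The 6 clusters also held 1 to 36 non_mCherry cells each, and the part of those cells in the small non_mCherry groups below was not tested. A second set of class names came from a gate, without clusters, that gives each cell the class whose marker list has the most UMIs in it, at least 5. It placed 9659 of the 10150 mCherry cells in the basophil and mast cell-like class and 212 in the stem and multipotent progenitor-like class. Cpa3, a gene of the basophil and mast cell list, was among the leading genes of all 6 clusters when set against control cells. Its part in the classes given by the gate was not tested.

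Btg2 was lowest and highest in the mCherry clusters with the lowest and the highest immediate early sum. It had 142 CPM in the AY036118 cluster, where the immediate early sum was 4011 CPM, and 1386 CPM in the Tnf cluster, where that sum was 29619.5 CPM. The 4 clusters between did not keep that order. Btg2 had 481 CPM at a sum of 11234 CPM in the Ube2c cluster, 1023 CPM at 20577.0 CPM in the Ifit1 cluster, 1099 CPM at 20605 CPM in the Plk2 cluster and 824 CPM at 25338 CPM in the Cma1 cluster. Gadd45b followed another pattern. It had 629 CPM in the Tnf cluster and between 129 and 176 CPM in the other 5, so even the lowest mCherry cluster exceeded the 36.2 CPM of all non_mCherry cells. Without the Tnf cluster Gadd45b had 146 CPM in mCherry, and its log2 ratio to control, with 5 CPM added to each level, was 2.30, against 3.21 with it. Trp53inp1 ran from 25.7 CPM in the Ube2c cluster to 53.5 CPM in the Ifit1 cluster and was 48.0 CPM in the AY036118 cluster. Gadd45a was 20.2 CPM in the basophil and mast cell-like cluster and 4.49 to 10.3 CPM in the other 5. Mdm2 stayed within 41.4 to 52.2 CPM in all 6 clusters.

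**Figure D3:**
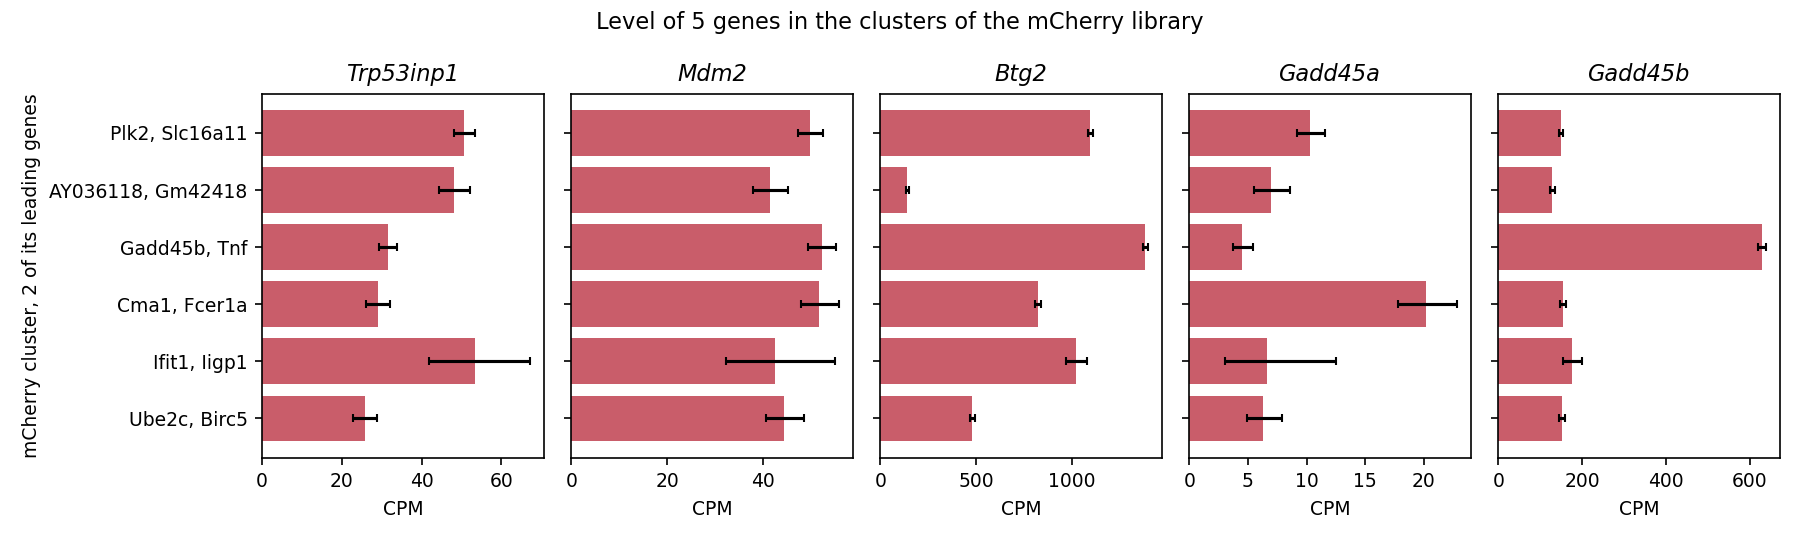
Level in CPM of Trp53inp1, Mdm2, Btg2, Gadd45a and Gadd45b in the 6 clusters of the mCherry library, each named by 2 of its leading genes, with exact Poisson intervals. Btg2 is low in the AY036118 cluster (142 CPM), Gadd45b stands out in the Tnf cluster (629 CPM), Gadd45a is highest in the Cma1 cluster (20.2 CPM) and Mdm2 is nearly even.

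Immediate early genes, which answer within minutes to growth signals and to handling, were 20218 CPM in mCherry beside 3301 and 3004.9 CPM in non_mCherry and control. The 3 genes called higher in mCherry, and Mdm2, were therefore also read at matched immediate early UMIs. Of the 16 listed, 15 reached 20 CPM in mCherry or control and 14 were at least 2-fold higher in mCherry, beside 18.5% of all genes at that level. Zfp36 had 1365 CPM in mCherry, 99.7 CPM in non_mCherry and 119.7 CPM in control, Egr1 607, 89.1 and 52.8 CPM, and Fosb 845, 71.0 and 79.5 CPM. Least raised were Klf2 with 129, 49.9 and 94.9 CPM, Klf4 with 67.5, 13.9 and 27.0 CPM, and Atf3 with 75.7, 43.2 and 19.1 CPM. Cells with 100 or more immediate early UMIs out of 5000 were 52.7% of mCherry, 1.55% of non_mCherry and 0.346% of control cells.

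Btg2, which is not among the 16, was close to equal between libraries at low and middle immediate early UMIs. In cells with 0 to 9 such UMIs it had 55.9 CPM in mCherry, 47.5 CPM in non_mCherry and 56.7 CPM in control. With 10 to 24 it had 124 CPM in mCherry, 124 CPM in non_mCherry and 126 CPM in control, and with 25 to 49 330.5, 300.3 and 303.9 CPM. The libraries lay further apart in the upper bins. With 50 to 99 UMIs Btg2 had 737 CPM in mCherry, 622 CPM in non_mCherry and 513 CPM in control, and with 100 or more 1517, 829 and 779 CPM, where control had 29 cells. Over all cells with fewer than 25 immediate early UMIs the log2 ratio of Btg2 between mCherry and control, with 5 CPM added to each level, was -0.19. Within the bins of 0 to 9 and 10 to 24 UMIs the levels were near equal. Those bins held 919 and 528 mCherry cells and 3038 and 3348 control cells, so the mix of bins differed. Among the mCherry clusters the AY036118 cluster (1430 cells) had by far the lowest immediate early sum, 4011 CPM. The next lowest had 11234 CPM, so the low bins of mCherry may largely be that 1 cluster. How many of their cells it gave was not counted, here or for the genes below.

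Gadd45b and Trp53inp1 remained higher in mCherry in the cells lowest in immediate early UMIs, where the gap of Gadd45b to both other libraries was smaller than over all cells. With 0 to 9 such UMIs Gadd45b had 96.2 CPM in mCherry, 30.2 CPM in non_mCherry and 24.2 CPM in control, and Trp53inp1 had 51.1 CPM in mCherry, 12.4 CPM in non_mCherry and 3.95 CPM in control. The slope over the bins was unlike that of Btg2. Trp53inp1 in mCherry lay between 35.8 and 51.1 CPM in all 5 bins, with no steady rise. In the bin of 100 or more UMIs it was not higher in mCherry, at 42.3 CPM beside 49.5 CPM in non_mCherry (97 cells) and 82.8 CPM in control (29 cells). Gadd45b in mCherry was 96.2 to 108 CPM in the 3 lower bins, 189 CPM with 50 to 99 UMIs and 420.1 CPM with 100 or more. Gadd45a in mCherry lay between 8.71 and 10.6 CPM in all 5 bins, against 24.2 to 72.2 CPM in non_mCherry and 23.6 to 35.8 CPM in control. Mdm2 had 42.2 CPM in mCherry, 29.1 CPM in non_mCherry and 29.8 CPM in control with 0 to 9 UMIs, and 48.0, 48.3 and 39.7 CPM with 50 to 99. With 100 or more it had 53.2, 45.4 and 69.0 CPM, the last from 29 cells.

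**Figure D4:**
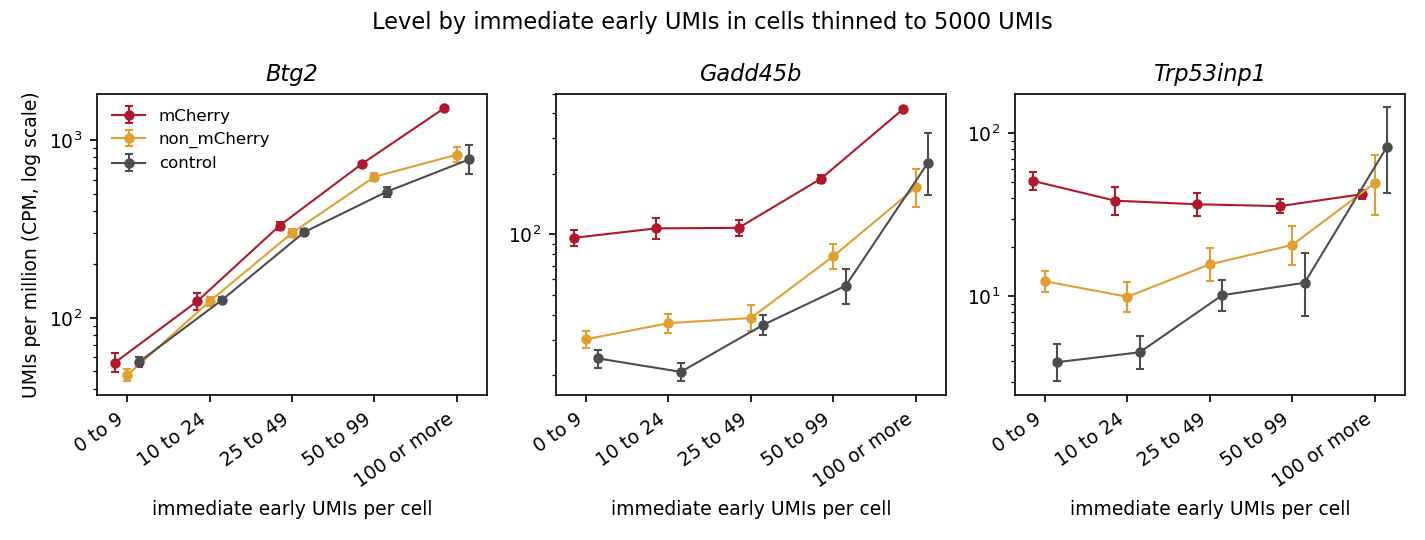
Level of Btg2, Gadd45b and Trp53inp1 (CPM, log axis) in cells grouped by their UMIs of 16 immediate early genes after thinning to 5000 UMIs, with exact Poisson intervals; the control point at 100 or more holds 29 cells. The 3 libraries nearly coincide for Btg2 up to 49 UMIs, while in the lowest bin Gadd45b was 96.2 CPM in mCherry and 24.2 CPM in control and Trp53inp1 51.1 and 3.95 CPM.

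The libraries also differed in cycling, and over all cells Trp53inp1 was higher in the cells of each library with few cycling UMIs. All 20 cycling genes reached 20 CPM in mCherry or control, and 15 were at least 2-fold lower in mCherry, beside 12.3% of all genes at that level. Rrm2 had 11.9 CPM in mCherry, 122 CPM in non_mCherry and 110.3 CPM in control, Gmnn 38.6, 163 and 166 CPM, and Mcm5 43.4, 175 and 179 CPM. Nearest to control were Cenpf with 56.8, 83.1 and 73.6 CPM, Cdc6 with 22.1, 38.6 and 40.5 CPM, and Tpx2 with 34.9, 66.2 and 67.3 CPM. Cells with fewer than 2 cycling UMIs out of 5000 were 39.9% of mCherry, 6.42% of non_mCherry and 4.09% of control cells.

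In those low-cycling cells Trp53inp1 had 44.7 CPM in mCherry, 40.4 CPM in non_mCherry and 22.2 CPM in control. In cells with at least 5 cycling UMIs it had 28.9 CPM in mCherry, 10.7 CPM in non_mCherry and 4.19 CPM in control. The gap between mCherry and non_mCherry was therefore nearly closed among low-cycling cells, with a log2 ratio of 0.13. The gap to control narrowed, with a log2 ratio of 0.87 against 2.26 over all cells, and control had 38 Trp53inp1 UMIs there. Btg2 had 1142 CPM in mCherry, 402 CPM in non_mCherry and 411 CPM in control in low-cycling cells, and 614, 123 and 129 CPM in the others. Gadd45b had 334 CPM in mCherry, 70.3 CPM in non_mCherry and 42.6 CPM in control in low-cycling cells. Gadd45a had 10.3 CPM in mCherry, 72.3 CPM in non_mCherry and 46.6 CPM in control there. The low-cycling cells were not alike in kind: 26.9% of those in non_mCherry and 25.4% of those in control were basophil and mast cell-like, and 16.0% and 29.4% stem-like. No class name was held by 82.6% of those in mCherry, 31.7% in non_mCherry and 15.5% in control.

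A comparison by marker score used the 5588 mCherry cells of the 4 clusters whose best score, at least 1, was on stem markers. The Tnf cluster, highest in Btg2 and Gadd45b, scored 0.60 and was left out. Set beside the 4 clusters were the 553 non_mCherry and 1124 control cells of the stem and multipotent progenitor-like cluster. These are different clusters, and the mCherry ones have no class name; most mCherry cells were placed with the basophil and mast cell-like cells by the marker gate. Btg2 had 746 CPM in mCherry, 131 CPM in non_mCherry and 168 CPM in control. Gadd45b had 146 CPM in mCherry, 27.3 CPM in non_mCherry and 20.1 CPM in control. Trp53inp1 had 44.8 CPM in mCherry, 9.81 CPM in non_mCherry and 10.8 CPM in control. The same 3 genes were thus at least 2-fold higher in mCherry against both, and 0 of those at 20 CPM were at least 2-fold lower. Among all genes, 8.98% of 6483 were higher and 4.86% lower against control, and 10.6% of 6412 were higher and 4.12% lower against non_mCherry. Between non_mCherry and control stem-like cells 4 of the 9 genes reached 20 CPM and 0 were 2-fold apart, beside 0.342% of 5848 genes higher and 0.564% lower.

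Of the 212 mCherry and 300 control cells that the marker gate called stem and multipotent progenitor-like, Btg2 had 430 CPM in mCherry and 231 CPM in control, Gadd45b 52.1 and 29.9 CPM, both under 2-fold, and Trp53inp1 36.8 and 9.83 CPM. In the stem-scored clusters the ratio to control was 4.45 for Btg2 (4.26 to 4.65), 7.28 for Gadd45b (6.41 to 8.30) and 4.15 for Trp53inp1 (3.49 to 4.99). Trp53inp1 was level between non_mCherry and control, with a ratio of 0.910 (0.644 to 1.27). Gadd45a had 8.60 CPM in mCherry, 13.7 CPM in non_mCherry and 15.2 CPM in control, all under 20 CPM, so it could not be called, and the ratio of mCherry to control, 0.566 (0.476 to 0.675), stayed under 2-fold. Phlda3 had 1.38 CPM in mCherry, 8.83 CPM in non_mCherry and 6.29 CPM in control. Among the stem-scored cells with fewer than 25 immediate early UMIs, Trp53inp1 had 50.9 CPM in mCherry, 9.60 CPM in non_mCherry and 9.26 CPM in control, Gadd45b 104, 28.3 and 21.6 CPM, and Btg2 88.0, 115 and 118 CPM. Among the stem-scored cells with fewer than 2 cycling UMIs, Trp53inp1 had 57.4 CPM in mCherry, 21.9 CPM in non_mCherry and 7.92 CPM in control, the last 2 from 64 and 101 cells. With at least 5 such UMIs it had 31.0, 6.19 and 11.2 CPM. The 7.92 CPM of control rests on 4 UMIs (2.16 to 20.3). That interval spans the 11.2 CPM (8.05 to 15.2), so no direction can be read in control.

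Between named classes of non_mCherry and control cells the genes had distinct places. Trp53inp1 was highest in the T, NK and innate lymphoid cell-like class, at 65.7 CPM in non_mCherry (49.6 to 85.3) and 46.4 CPM in control (33.1 to 63.1), with the B cell progenitor-like cells of non_mCherry next at 51.1 CPM (47.1 to 55.3). The intervals of the highest class and the next overlap in non_mCherry. Under the marker gate the B cell progenitor-like cells of non_mCherry stood above the T, NK and innate lymphoid cell-like class, at 50.7 and 36.1 CPM. The stem and multipotent progenitor-like cells had 9.81 CPM in non_mCherry and 10.8 CPM in control. The lowest class depends on how cells were named: dendritic cell-like cells, the lowest by clusters at 1.71 CPM in non_mCherry and 0.959 CPM in control, had 7.34 and 13.9 CPM under the gate.

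Btg2 was high in the T, NK and innate lymphoid cell-like class, at 314 CPM in non_mCherry and 400.0 CPM in control, and in the basophil and mast cell-like class, at 344 and 269 CPM. It was low in granulocyte-monocyte progenitor-like cells, at 34.0 CPM in non_mCherry and 35.3 CPM in control. Immediate early sums moved with it, at 8557 CPM in the basophil and mast cell-like cells of non_mCherry and 1170.1 CPM in its granulocyte-monocyte progenitor-like cells, and their part was not tested there. Gadd45a was also high in basophil and mast cell-like cells, at 90.4 CPM in non_mCherry and 56.3 CPM in control, and was highest in the neutrophil-like cells of control, at 114 CPM.

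Gadd45b was lowest in erythroid progenitor-like cells, at 10.6 CPM in non_mCherry and 5.61 CPM in control. Those same cells had the highest level of Ccng1 (34.7 CPM in non_mCherry and 34.3 CPM in control). Trp53 was also high there (243 and 260.2 CPM), though at a clustering resolution of 0.6 the megakaryocyte-like cells of non_mCherry stood above them (248 and 222 CPM). Phlda3 had 10.3 and 9.32 CPM in them, and the lymphoid-primed progenitor-like cells had more under the marker gate, at 14.8 CPM in non_mCherry and 21.5 CPM in control. In granulocyte-monocyte progenitor-like cells Phlda3 had 0.270 CPM in non_mCherry and 0.0981 CPM in control by clusters, but 5.16 and 3.97 CPM in the 2490 and 4962 cells that the gate gave this name. Mdm2 was more even, spanning 1.77-fold over the classes of non_mCherry and 2.10-fold over those of control, and Trp53 spanned 1.92-fold and 1.91-fold.

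By clusters the basophil and mast cell-like class is the only one with at least 100 mCherry cells. It is held by cluster 3 in mCherry and mostly by cluster 8 in the other libraries (585 of 597 such cells in non_mCherry). Cluster 3 was led by Cma1 and Cpa3 and cluster 8 by Prss34 and Mcpt8, so unlike cells may share this class name. Trp53inp1 had 28.9 CPM in mCherry, 10.7 CPM in non_mCherry and 14.2 CPM in control there, Btg2 824, 344 and 269 CPM, and Gadd45b 154, 41.0 and 34.0 CPM. Gadd45a had 20.2 CPM in mCherry, 90.4 CPM in non_mCherry and 56.3 CPM in control. Between mCherry and either other library the directions of these 4 genes in this class are those of all cells.

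**Figure D5:**
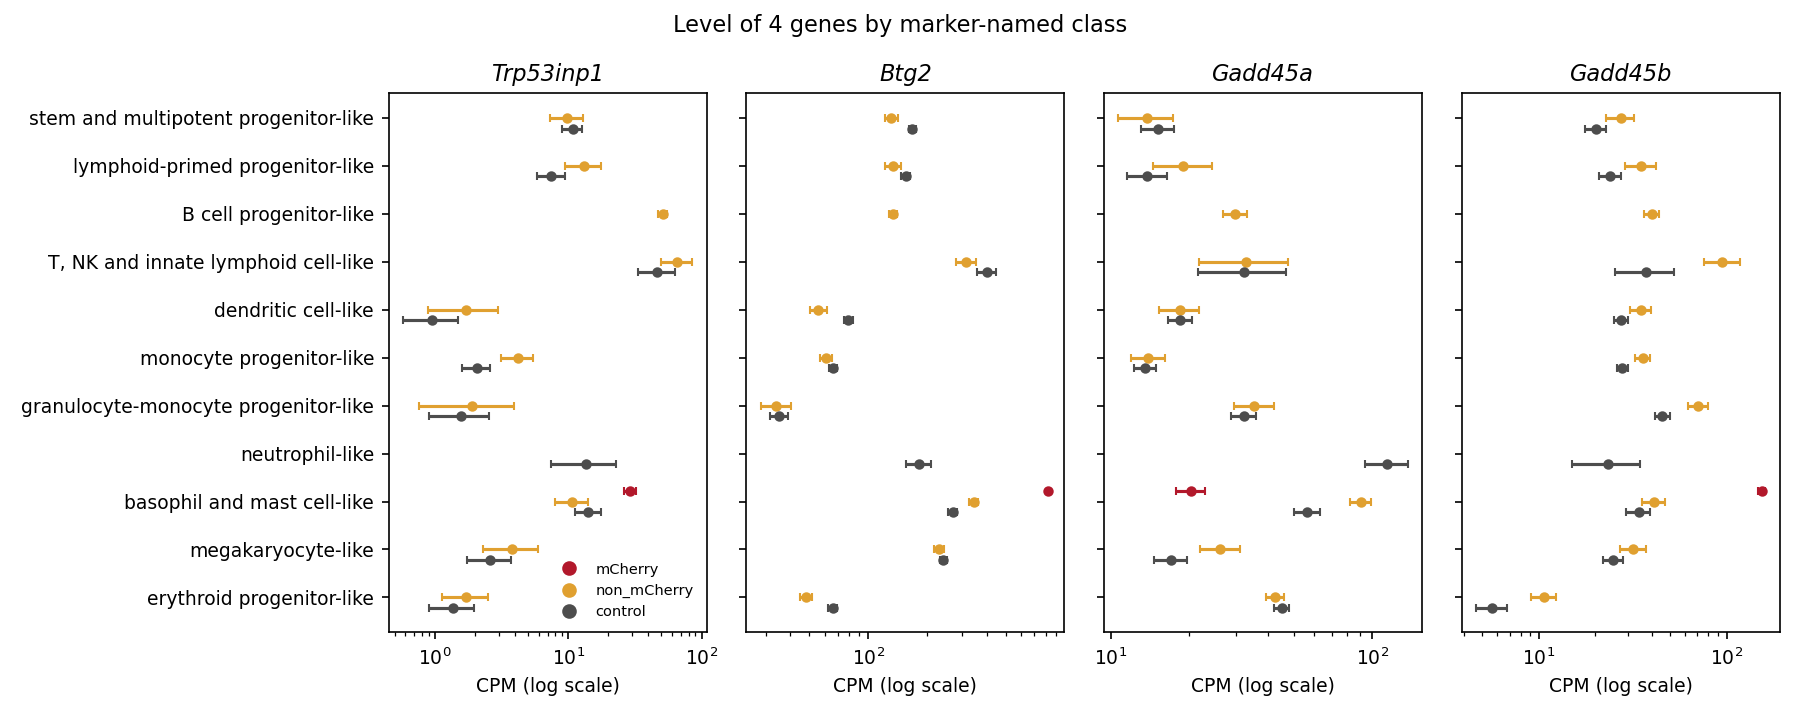
Level in CPM (log axis) of Trp53inp1, Btg2, Gadd45a and Gadd45b in each marker-named class with at least 100 cells, by library, with exact Poisson intervals; mCherry has a point only for basophil and mast cell-like cells. Trp53inp1 is highest in the T, NK and innate lymphoid cell-like and B cell progenitor-like classes, Gadd45a is highest in the neutrophil-like cells of control and in the basophil and mast cell-like cells of non_mCherry (90.4 CPM, against 20.2 CPM in those of mCherry), and Gadd45b is lowest in erythroid progenitor-like cells.

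Between non_mCherry and control 6 of the 9 genes reached 20 CPM and 0 of them was at least 2-fold apart, beside 1.4% of 5634 genes higher and 0.319% lower. Within the 15 clusters that hold at least 100 cells of both libraries, differences of most of the 9 genes ran mostly or always in 1 direction. The share of all genes that do so is not given here, so these counts are no result about the members. Gadd45b was higher in non_mCherry in 15 of 15, with 11 intervals above a ratio of 1 and ratios of 1.05 to 2.56. Trp53 was lower in 15 of 15, with 10 intervals below 1 and ratios of 0.759 to 0.989. Btg2 was lower in 11 of 15, with 10 intervals below 1 and 2 above. Gadd45a was higher in 12 of 15, with 4 intervals above 1 and 1 below. Mdm2 was lower in 13 of 15, with 2 intervals below 1, and Trp53inp1 higher in 12 of 15, with 2 above. Ccng1 and Zmat3 were each lower in 11 of 15, with 0 intervals below 1. Phlda3 was higher in 8 of 15, with 1 interval above 1. The clusters all come from the same pair of libraries, so they repeat 1 comparison and do not replicate it. Trp53inp1 had a mean log2 ratio, with 5 CPM added to each level, of 0.23 over these clusters and of 1.01 over all cells.

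Genes with a pattern most like each member were sought over 39 groups of at least 100 cells, each from 1 library and 1 cluster, by the Pearson correlation of log2(CPM + 5) among 8484 genes. Groups of a library share its depth and handling, so the values are descriptions with no p. For Trp53inp1 the nearest were Pbxip1 (r = 0.95), Ube2h (0.95) and Baz2a (0.92). For Btg2 they were Jund (0.94), Cmip (0.93) and Malat1 (0.93), and for Gadd45b Pik3ip1 (0.90), Dusp2 (0.90) and Rnaset2b (0.88). For Mdm2 they included Dnajc5 (0.89) and Zfand3 (0.87). Trp53 was near to Mical3 (0.84), Cpsf2 (0.82) and Setdb1 (0.82), Ccng1 to Myo1d (0.80), Urod (0.79) and Minpp1 (0.79), and Zmat3 to Ubxn2a (0.83) and Smap1 (0.83). Phlda3 was nearest to 2310022B05Rik (0.78), Net1 (0.73) and 1700017B05Rik (0.72), and Gadd45a to 1110008P14Rik (0.72), Larp1b (0.71) and Taldo1 (0.70). Over the 33 groups outside mCherry r was lower for some, such as 0.75 for Dusp2, 0.62 for Net1 and 0.54 for Taldo1. For others it was level or higher, such as 0.95 for Pbxip1 and 0.95 for Cmip.

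Among the 9 genes themselves, Mdm2 went with Btg2 (r = 0.79) and Trp53inp1 (0.78) over the 39 groups, and without the mCherry groups (33) r was 0.67 and 0.70. Trp53 went with neither, at -0.14 with Trp53inp1 and -0.15 with Mdm2, and its nearest member was Ccng1 (0.52). Gadd45b and Gadd45a had r = -0.49 over all groups and -0.10 without mCherry.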

How the data were processed

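The authors deposited 1 matrix of UMI counts per library, whole numbers with no normalization. The submitters' processing notes name Cell Ranger 6.1.2 and mm10, while per the file headers the software version is 3.1.0, and which of them applies is not settled here. Cells needed at least 1000 genes and 2000 UMIs, with at most 10% of UMIs from mitochondrial genes. Scrublet in scanpy 1.11.5 scored doublets, and scores over 0.25, a common value set after the scores were seen, removed 2.58% of mCherry, 2.56% of non_mCherry and 2.31% of control cells. The kept cells of mCherry and control share 36 barcodes, mCherry and non_mCherry 20, and non_mCherry and control 16.

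CPM are sums of UMI counts over the cells of a group, scaled by their total. A gene at 20 CPM or more in 1 of 2 libraries was called where its CPM ratio was 2 or more. Sums carry Poisson, shares Clopper-Pearson intervals at 95%, and a count of 0 has a floor of 3. The scripts were tested on simulated data. Cells were clustered with 2000 variable genes, 30 principal components, 15 neighbours and Leiden at resolution 1.0, without the 9 genes and the other p53 targets, into 27 clusters. Of these, 19 were named from marker lists by a rule set after the data were seen. Members and lists were chosen with earlier results of these data known. From each list the 3 genes furthest up and down in mCherry over control are named, plus Cdkn1a, Bax, Bbc3, Pmaip1, Mdm4, Cdkn2a, Trp63, Trp73 and Gadd45g whatever their values. A few genes that this rule or the search for similar patterns would name are not reported here. Of 27998 gene identifiers, 27722 matched GENCODE M21 on mm10, which gave gene positions. Promoter windows for 7 of the 9 genes came from RefSeq on GRCm38.p6, and Trp53inp1 and Zmat3 are named only.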

Additional observations from a re-analysis of the deposited data

How the results depend on the processing

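The calls of 4 genes at least 2-fold apart in mCherry against control, and of 4 against non_mCherry, stayed within 3 to 5 under every alternative run. Without a filter on low values Phlda3 was added to both, giving 5. Gadd45a was lost among stem-scored cells, giving 3, and Trp53inp1 was lost against non_mCherry with the mean of per-cell CPM and among low-cycling cells. For non_mCherry over control the count was 0, and it was 1, Trp53inp1, with the mean of per-cell CPM, with a total without mitochondrial, ribosomal protein and Malat1 counts, and with no filter on low values; the cause was not tested. Btg2 in cells with fewer than 25 immediate early UMIs had a log2 ratio of -0.19 between mCherry and control, against 2.90 over all cells, with near-equal levels within the bins below 25. That alternative, and those without shared barcodes, without the Gadd45b and Tnf cluster and without genes over 10000 CPM in the total, were chosen after seeing the data. Over the alternatives the log2 ratio of mCherry to control was 1.94 to 3.39 for Gadd45b, 0.87 to 2.95 for Trp53inp1, 0.34 to 0.62 for Mdm2 and -1.75 to -0.57 for Gadd45a; that of Trp53 was -0.27 to 0.05 and that of Ccng1 -0.32 to 0.12, across 0. Median-of-ratios scaling moved the median of all tested genes in mCherry over control to -0.10 on the log2 scale, against 0.08 with the total. Levels by class moved beyond their intervals in 39 values and stayed within them in 114 at resolution 0.6, in 30 and 141 at 1.5, and in 89 and 82 under a gate on marker UMIs. No paired analysis was possible because each group has 1 library.

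Depth limits Zmat3 and Phlda3, at 104 to 787 UMIs a library, and the classes with few cells. With 1 mouse a genotype, differences between mice and between libraries cannot be told apart from those of genotype or poly(I:C).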
